A study of Mus musculus with 6 samples.

Results

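Small nucleolar RNA (snoRNA) host genes are genes whose introns carry snoRNAs, and many of them make a spliced RNA with no known protein product. The members described here were taken by name, as every row whose symbol is Snhg followed by a number, plus Gas5, and 12 of the 23235 gene rows met that rule. A working list of 5 of them (Snhg1, Snhg6, Snhg8, Snhg12 and Gas5) had been selected on these same values because they were higher in the knock-out, so the knock-out to WT contrast of the members is given as a description: no p-value of a member is printed, and counts of members past the call rule are set beside the share of all genes and support nothing. Of the 12 members, 10 reached the mean of 1 FPKM (fragments per kilobase, scaled to the fragments sequenced) required for the fit across all genes. Snhg4 and Snhg7 did not, and Snhg12 did so only through the knock-out libraries.

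The series compared fully-grown germinal vesicle (GV) oocytes of C57BL/6 mice, 3 WT libraries against 3 libraries of Rtcb knock-out (KO) oocytes. RTCB is the RNA ligase that joins the exons of tRNAs and of the Xbp1 mRNA, and the series title names a role in alternative splicing of oocyte mRNA. Each library held 10 oocytes, taken after PMSG, a hormone that stimulates follicle growth, had been given to both genotypes. The sources used here do not give how the knock-out was made, the deleted part of Rtcb or the meaning of the tag 6W that all 6 titles carry. The labels call the 3 libraries of a genotype replicates without naming animals, so p-values cover only how these libraries vary, and that variation may be technical.

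Excision of a snoRNA from a host intron leaves a mature snoRNA, which guides chemical modification of ribosomal or spliceosomal RNA, and a spliced host RNA. Several spliced host RNAs are exported, engaged by ribosomes at short reading frames and degraded by nonsense-mediated decay (NMD), the pathway that removes mRNAs with premature stop codons. Many host genes start transcription at a pyrimidine tract of the kind found in mRNAs of the translation machinery (terminal oligopyrimidine, TOP). A fully-grown GV oocyte stores RNA and makes little new RNA before meiosis resumes.

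The starts of the host genes are printed because most members with a window share start features that the selection did not use. RefSeq windows on GRCm38.p6 were used for 10 of the 12 members, each shown from 45 bases before to 35 bases from the start onward, 5′ to 3′ on the gene's strand. Capitals mark TATA lying 45 to 15 bases before the start, and a run of at least 5 C or T bases that opens with C and begins within 10 bases of the start. Snhg1, Gas5 at its second annotated start, Snhg8 and Snhg12 are members that were higher in KO. Snhg5 and Snhg9 are members whose groups overlapped as deposited. Under the other scalings described below, only Snhg9 of these still overlapped, and every KO library of Snhg5 was above WT.
Snhg1, chr19:8723442-8723521, plus strand: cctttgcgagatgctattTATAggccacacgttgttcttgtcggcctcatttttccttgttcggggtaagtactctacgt
Gas5, chr1:161035121-161035200, plus strand: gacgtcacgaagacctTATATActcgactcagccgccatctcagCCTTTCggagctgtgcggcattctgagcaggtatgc
Snhg8, chr3:123508302-123508381, minus strand: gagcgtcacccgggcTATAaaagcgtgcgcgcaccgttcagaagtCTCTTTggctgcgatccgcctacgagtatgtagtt
Snhg12, chr4:132308633-132308712, plus strand: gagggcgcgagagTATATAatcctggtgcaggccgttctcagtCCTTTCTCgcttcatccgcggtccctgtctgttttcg
Snhg5, chr9:88522863-88522942, minus strand: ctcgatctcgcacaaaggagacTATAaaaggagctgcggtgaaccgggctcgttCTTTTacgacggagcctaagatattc
Snhg9, chr17:24719931-24720010, minus strand: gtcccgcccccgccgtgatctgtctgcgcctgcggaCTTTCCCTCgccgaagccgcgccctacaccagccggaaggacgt

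TATA, which reads the same on both strands, was present in the stated stretch for 6 of the 10 members with a window, against 7.93% of 27025 genes. The C-led pyrimidine run, searched on the gene's strand, was present for 8 of the 10, against 33.3% of genes. Both were present for 5 members (Gas5, Snhg5, Snhg7, Snhg8 and Snhg12), against 2.41% of genes. In these shares a gene counts when any of its annotated starts matches, and the first annotated start of Gas5 held neither feature. TATA was present in Snhg1, Gas5, Snhg8 and Snhg12, the 4 selected members with a window, and in 2 of the 6 other members with one, Snhg5 and Snhg7. The run was present in 3 of those 4 and in 5 of those 6. With so few members, whether either feature goes with the change was not tested. A match is only a match of letters, and Snhg6 and Snhg4 had no window among those used. Windows on a chromosome that holds none of the 10 were left out for members but kept in the shares of all genes. The position of Snhg4 was not available, so a Snhg4 window may have been among those left out.

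Rtcb, listed under its older symbol D10Wsu52e, checked the labels: it measured 136, 133 and 113 FPKM in WT and 3.82, 2.62 and 2.49 FPKM in KO. The values are normalised by the authors to ERCC spike-in RNA, and a single factor per genotype, 2 for WT and 4/3 for KO, accounted for 100% of tested values in each library. Over the 12029 tested genes the median log2 fold change was -0.47 as deposited, -0.094 after scaling libraries to equal totals and 0.043 with the genotype factors removed, so each change below is also placed against that median. Depth cannot be read from these values. The 9 oocyte markers summed to 28907 to 31856 FPKM in WT and 19559 to 20663 FPKM in KO, the 11 granulosa and cumulus cell markers to 58.9 to 65.7 and 46.9 to 59.0 FPKM, with 4 of the 11 below 1 FPKM in every library, and 4 haemoglobin genes were listed at 0 throughout. In bulk samples, fewer cells of a type and less RNA per cell cannot be told apart.

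Snhg1 had the largest difference among the members in log2(FPKM + 1), though not the largest ratio. Its span holds 8 annotated snoRNAs on the same strand in GENCODE vM21, and its start lies within 1 kb of Slc3a2, which is transcribed the opposite way. Snhg1 measured 29.2, 33.0 and 38.3 FPKM in WT and 84.4, 83.4 and 96.5 FPKM in KO. The groups were far apart, and every KO library was above every WT library. The mean went from 33.5 ± 4.57 to 88.1 ± 7.28 FPKM (SD, n = 3), a ratio of 2.63 that stayed between 2.47 and 2.83 when single libraries were left out. The difference was 1.37 (SE 0.124) in log2(FPKM + 1), a scale on which low genes appear to change less than they do. Only 254 tested genes had a larger one.

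Gas5, named for its accumulation in growth-arrested cells, has 10 genes annotated as snoRNA or Cajal body RNA within its span on the same strand, 1 of them under the name Mir5117. It measured 7.37, 8.57 and 10.1 FPKM in WT and 14.8, 15.9 and 18.7 FPKM in KO, with no overlap. The mean was 8.67 ± 1.35 FPKM in WT and 16.5 ± 2.02 FPKM in KO (SD, n = 3), a log2 difference of 0.86 (SE 0.154).

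Snhg6, the host of Snord87, was the most abundant member in KO. It measured 150.7, 212 and 183 FPKM in WT and 286, 263 and 283 FPKM in KO. The KO libraries lay close together and above all WT libraries, of which the first was lowest. The mean went from 182 ± 30.9 to 277 ± 12.5 FPKM (SD, n = 3), a log2 difference of 0.62 (SE 0.128).

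Snhg8, the host of the H/ACA snoRNA Snora24, was a low-level transcript. It measured 1.04, 0.447 and 1.84 FPKM in WT and 3.53, 3.49 and 4.11 FPKM in KO. All KO libraries were above all WT libraries, and the WT libraries were widely spread. The ratio of means was 3.34, and it was 2.57 without WT replicate 2 and 4.99 without WT replicate 3. The log2 difference was 1.21 (SE 0.247), and it depended on the pseudocount, being 1.83 with 0.1 FPKM and 0.52 with 5 FPKM.

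Snhg12, which hosts Snora16a, Snora44, Snora61 and Snord99, measured 0.501 and 0.647 FPKM in 2 WT libraries and was listed at 0 in the third. In KO it measured 1.57, 3.02 and 2.86 FPKM. KO replicate 1 was the lowest of its group and still above all WT libraries. The log2 difference of 1.34 (SE 0.259) moved to 2.808 with a pseudocount of 0.1 FPKM and to 0.47 with 5 FPKM. The ratio of means, 6.49, was 4.33 without WT replicate 3 and 9.92 without WT replicate 2.

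**Figure D1:**
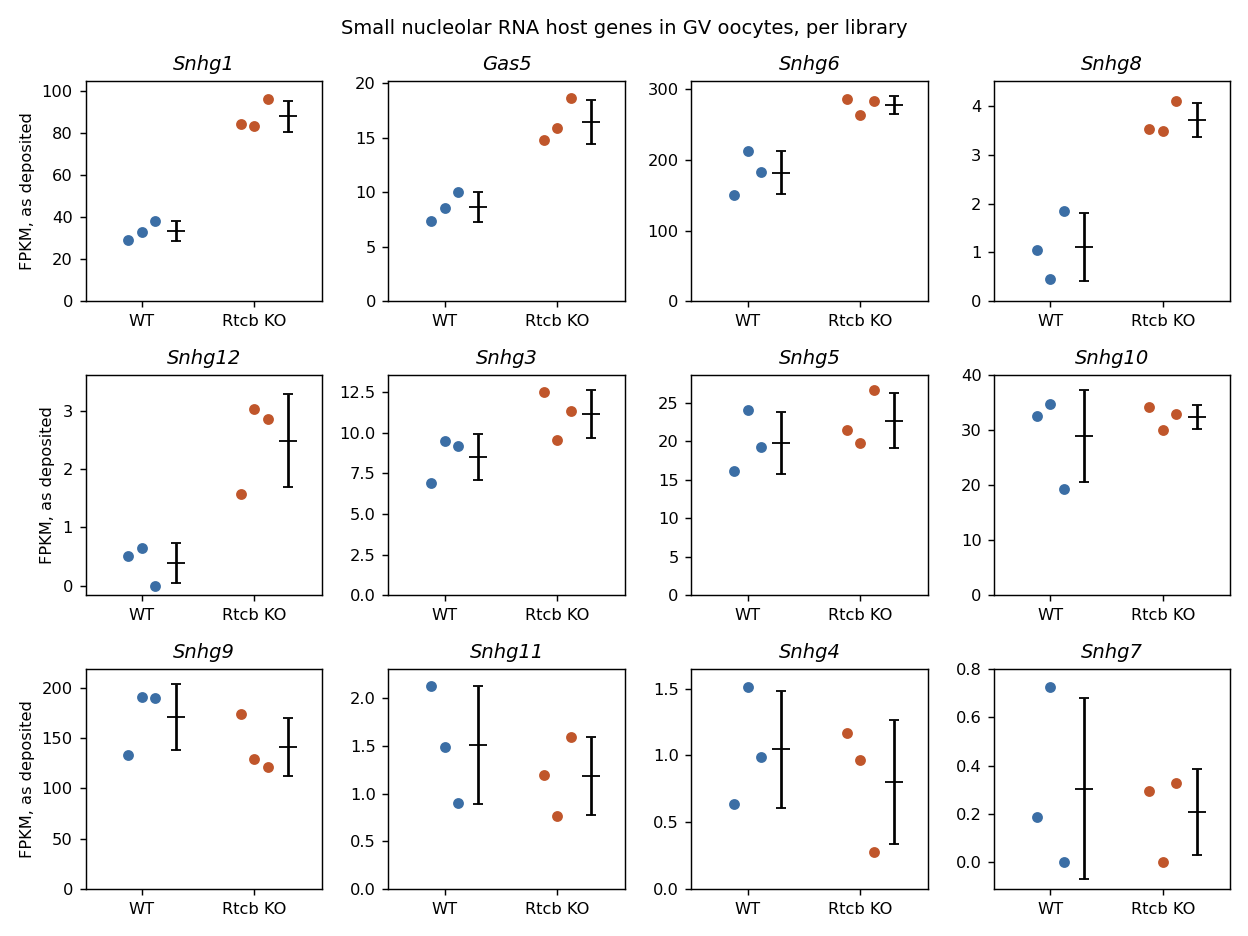
FPKM as deposited (vertical axes, a separate scale for each gene) of the 12 host genes in the 3 WT and 3 Rtcb KO libraries. Each point is 1 library and the bars are mean ± SD; Snhg1, Gas5, Snhg6, Snhg8, Snhg12 and Snhg3 have every KO point above every WT point.

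The other members changed less. Snhg3, the host of Snora73a and Snora73b, measured 6.91, 9.48 and 9.18 FPKM in WT and 12.5, 9.56 and 11.4 FPKM in KO. Its lowest KO library was just above the highest WT library, and the log2 difference was 0.36 (SE 0.165). Snhg3 is the member just outside the 5 selected, and Snhg6, at 0.62, is the one with the smallest difference inside.

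Snhg5, the host of Snord50a and Snord50b, measured 16.1, 24.0 and 19.2 FPKM in WT and 21.5, 19.9 and 26.7 FPKM in KO, and the groups overlapped. The difference was 0.20 (SE 0.174). Snhg10, the host of the Cajal body RNA Scarna13, measured 32.5, 34.8 and 19.3 FPKM in WT and 34.2, 29.9 and 32.9 FPKM in KO. Again the groups overlapped, with WT replicate 3 lowest, and the difference was 0.20 (SE 0.209).

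Snhg9, the host of Snora78, was about as abundant as Snhg6 in WT but was not higher in KO as deposited. It measured 133, 191 and 190 FPKM in WT and 174, 129 and 121 FPKM in KO, a difference of -0.27 (SE 0.182) that turned to 0.15 at equal totals and 0.31 with the genotype factors removed. Snhg9 is the shortest member annotated, at 435 bases, and it overlaps Rps2 on the opposite strand. Snhg11 lay between 0.769 and 2.13 FPKM with overlapping groups. Snhg4 lay between 0.280 and 1.51 FPKM. Snhg7 did not exceed 0.725 FPKM and was listed at 0 in 1 library of each genotype.

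As deposited, 5 of the 10 tested members passed the call rule as higher and 0 as lower (limma, Benjamini-Hochberg adjusted p under 0.05). These are the 5 that were selected on this contrast, so nothing is read from the count. Of all tested genes, 9.29% passed as higher and 54.0% as lower. Every KO library was above every WT library for 6 members and for 10.2% of tested genes. With libraries at equal totals 7 members passed as higher, Snhg3 and Snhg5 being added, beside 19% of tested genes, and 8 did not overlap, beside 23.5%. With the genotype factors removed 8 members passed, Snhg10 being added, beside 25.7% of genes, and 8 did not overlap, beside 31.7%. The member median was 0.49 as deposited, 0.90 at equal totals and 1.01 with the factors removed. Set against the median of all tested genes it was 0.957, 0.992 and 0.972 higher. Scaling moves most genes together, so this distance can change little, and 5 of the members were selected for it.

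**Figure D2:**
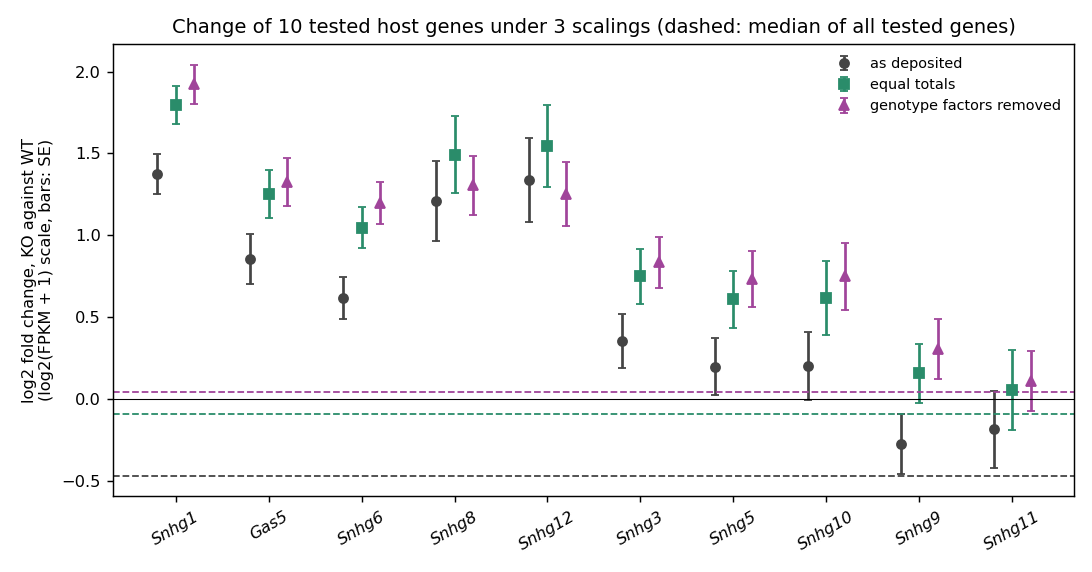
Log2 fold change of KO against WT on the log2(FPKM + 1) scale (vertical axis) for the 10 tested host genes under 3 scalings, with SE bars, and the median of all tested genes as dashed lines. Snhg1 is highest under every scaling shown, and Snhg9 and Snhg11 are below 0 as deposited and above 0 under the other 2 scalings.

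The rank of a gene within its own library does not depend on a factor shared by that library. It does depend on the other genes. Their median log2 fold change was -0.47 as deposited, so a gene with unchanged deposited FPKM can rise in rank. Among rows above 0 FPKM, Snhg1 went from a mean percentile of 71.5 in WT to 88.0 in KO, Snhg8 from 26.5 to 44.2 and Gas5 from 52.2 to 66.4. Snhg6 went from 90.9 to 95.9. Snhg3 (51.9 to 60.4), Snhg5 (63.7 to 71.1) and Snhg10 (68.9 to 76.4), which differed little in deposited FPKM, also had every KO percentile above every WT percentile. Snhg9 (90.4 to 91.8) and Snhg11 (30.3 to 30.1) overlapped. Of the 9 tested members above 0 in all libraries, 7 were thus higher in rank without overlap, beside 25.5% of 11894 tested genes. These are the same libraries and contrast as before and add no independent measure.

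**Figure D3:**
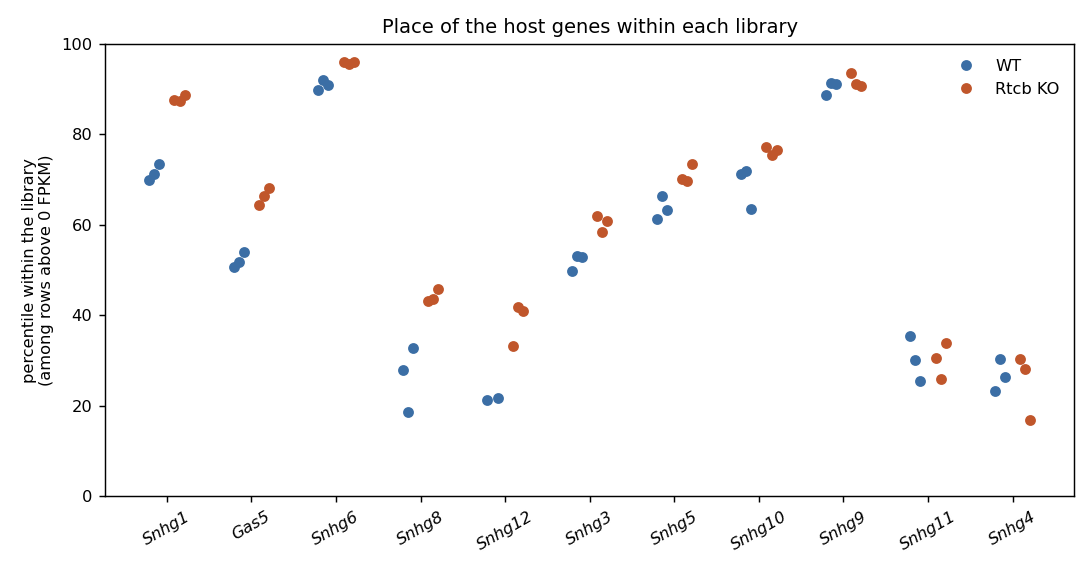
Percentile of each host gene among rows above 0 FPKM within its library (vertical axis, 0 to 100), for WT and Rtcb KO libraries; libraries in which Snhg12 is listed at 0 have no point, and Snhg7 is left out. Snhg1 sits near 71.5 in WT and 88.0 in KO, and Snhg9 stays near 90.4 to 91.8.

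The makeup of the host gene pool is given as a description only. Snhg1 and Snhg6 were selected for being higher in KO. The larger sum, their larger shares and the smaller share of Snhg9 in KO therefore support nothing. The 12 members summed to 457 ± 70.1 FPKM in WT and 598 ± 38.1 FPKM in KO (SD, n = 3). Snhg9 made up 37.3% of that sum in WT and 23.6% in KO. Snhg6 made up 39.8% and 46.4%, and Snhg1 made up 7.39% and 14.8%. Ratios inside a library need no scaling between genotypes: Snhg1 to Snhg9 was 0.220, 0.173 and 0.202 in WT and 0.486, 0.647 and 0.796 in KO, without overlap. Gas5 to Snhg5 went from 0.446 ± 0.0839 to 0.729 ± 0.0631 (SD, n = 3), also without overlap. In both pairs the first gene was selected for being higher in KO, so their separation supports nothing. Between members that were not selected, Snhg10 to Snhg9 was 0.176 ± 0.0715 in WT and 0.233 ± 0.0373 in KO (SD, n = 3), and the groups overlapped. Such a ratio shows unequal change and not which of the pair moved. The members' own spread was unequal too, with a coefficient of variation in WT of 13.6% for Snhg1 and 63.0% for Snhg8.

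Further lncRNA hosts are listed under older symbols and fell outside the naming rule. Snhg15, listed as Gm11974, was 19.8 ± 4.11 FPKM in WT and 32.5 ± 7.99 FPKM in KO (SD, n = 3), without overlap. Dancr, listed as 2700023E23Rik, had means of 0.0488 and 0.312 FPKM, also without overlap, and was too low to be tested. Snhg18, listed as 0610007N19Rik, had means of 41.2 and 35.4 FPKM as deposited, with overlap, but lay 0.22 higher in KO on the log2 scale at equal totals and 0.36 higher with the factors removed, without overlap. Snhg20, listed as 2810008D09Rik, had means of 2.28 and 0.869 FPKM, and the groups overlapped under each scaling. Snhg14 matched 2 rows: C230091D08Rik had means of 1.23 and 0.703 FPKM, with every KO library below WT as deposited but not under the other scalings, and D7Ertd715e had 1.55 and 1.56 FPKM. Snhg17 (9430008C03Rik, means of 0.845 and 1.39 FPKM) and Snhg16 (1810032O08Rik, 0.280 and 0.312 FPKM) overlapped as deposited. A separate list of other lncRNA hosts also holds the protein-coding gene Snurf. Among the 4 tested genes of that list, 1 rose and 0 fell. It was Zfas1, listed as 1500012F01Rik, at 16.7 ± 1.49 FPKM in WT and 23.1 ± 3.62 FPKM in KO (limma adjusted p = 0.0298, n = 3), and the call was lost in 5 of 6 fits that left out 1 library.

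Genes that share a start region or overlap with a member were read beside it, since Smart-seq2 does not keep strand and reads of opposite genes cannot be told apart. Slc3a2, the amino acid transporter subunit beside Snhg1, measured 201 ± 5.18 FPKM in WT and 178 ± 2.36 FPKM in KO (limma adjusted p = 0.0713, n = 3), with every KO library below WT. The sign of Slc3a2 turned with scaling. It was called higher by 0.25 at equal totals (limma adjusted p = 0.032) and by 0.40 with the factors removed (adjusted p = 0.00478). Zbtb37, opposite to Gas5, fell from 29.1 to 18.5 FPKM (limma log2 difference -0.62, adjusted p = 0.00161), but its adjusted p was 0.199 at equal totals and 0.678 with the factors removed. Rcc1, which overlaps Snhg3 on the same strand, fell from 33.9 to 17.4 FPKM (limma log2 difference -0.90, adjusted p = 0.00267), with adjusted p = 0.0695 and 0.150 under those scalings. Rps2, beside Snhg9, measured 610 and 638 FPKM as deposited (limma adjusted p = 0.662). It was called higher by 0.51 on the log2 scale at equal totals (adjusted p = 0.0238) and by 0.67 with the factors removed (adjusted p = 0.0117). The row 6030422M02Rik, opposite to Snhg6, was too low to be tested, at 0.171, 0.166 and 0.114 FPKM in WT and 0.571, 0.388 and 0.602 FPKM in KO, with every KO library above WT. Glrx5, beside Snhg10, fell from 1118.5 to 871 FPKM (limma adjusted p = 0.0209). That call was lost without WT replicate 2, WT replicate 3 or KO replicate 1, and the sign turned to 0.071 at equal totals and 0.22 with the factors removed.

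Mature snoRNAs have no poly(A) tail and are short, and the libraries were primed with oligo-dT. Of the 114 snoRNA and scaRNA rows, 60 were at 0 in every library and 4 were above 0 in all 6. The 11 rows of small RNAs inside a member behaved alike: none was above 0 in every library and 3 were at 0 in all. Snora78, inside Snhg9, came closest, with 8.71, 0 and 11.6 FPKM in WT and 6.82, 26.3 and 30.6 FPKM in KO. Snord47, inside Gas5, was listed at 1836 FPKM in KO replicate 2 and at 0 in the other 5 libraries. Snord87, inside Snhg6, was listed at 256 FPKM in WT replicate 1, 515 FPKM in KO replicate 2 and 0 elsewhere. These rows thus give no usable level of the released snoRNAs. Snord47 and Snord87, the 2 box C/D snoRNAs named here, are printed from GENCODE vM21 transcripts to show what such a row stands for. The C box TGATGA and the D box CTGA are in capitals. Other box C/D rows lie inside members and are not printed, among them Snord22 in Snhg1, whose sequence holds no TGATGA.
Snord47: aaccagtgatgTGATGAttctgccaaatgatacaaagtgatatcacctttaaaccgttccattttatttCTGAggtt
Snord87: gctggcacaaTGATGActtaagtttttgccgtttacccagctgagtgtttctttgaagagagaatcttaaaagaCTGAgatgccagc

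Over all snoRNA and scaRNA rows, 53 were tested, of which 4 rose and 6 fell as deposited, beside 9.29% and 54.0% of all tested genes. With the factors removed 2 rose, beside 25.7% of all tested genes, and 2 fell. Snord17, counted among those that rose, was listed at 0 in all WT libraries and at 1.998, 5.13 and 6.72 FPKM in KO. It reached the mean required for the fit through the KO libraries alone, so no p-value is given. Snora75 measured 348, 187 and 540 FPKM in WT and 0, 87.6 and 0 FPKM in KO (limma adjusted p = 0.00926). Snora3 and Snora47 also fell (limma adjusted p = 0.0137 and 0.0364). The Snora3 call was lost without KO replicate 3, and the Snora47 call in 5 of 6 fits without 1 library. As these rows give no usable level, nothing is read from their counts or calls.

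Counts in this and the following lists are to be read beside the shares of all 12029 tested genes. As deposited, 9.29% were called higher and 54.0% lower. At equal totals 19% were called higher, and 25.7% with the factors removed. Those called lower numbered 3107 and 2161 under these scalings. Differences of a list from these shares were not tested. Core proteins of the snoRNA particles (snoRNPs) lay near the median of all genes. Of 8 core proteins, 0 rose and 6 fell as deposited, with a list median of -0.43 beside -0.47 over all genes. The falls depended on scaling, since 1 remained called lower at equal totals and 0 with the factors removed, where 2 were called higher. Nop56, a box C/D core protein, fell from 208 ± 13.2 to 135 ± 6.42 FPKM (limma adjusted p = 0.000598, n = 3). Gar1, a box H/ACA core protein, fell from 33.7 ± 13.0 to 14.0 ± 3.40 FPKM (limma adjusted p = 0.00521, n = 3), and its adjusted p was 0.0446 at equal totals and 0.0905 with the factors removed. Dkc1, the pseudouridine synthase, and Nhp2l1, which binds the box C/D motif, fell as deposited (limma adjusted p = 0.00292 and 0.00570) and turned to 0.072 and 0.16 on the log2 scale with the factors removed.

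Factors that assemble snoRNPs or process their RNA went both ways. Of 16, 5 rose and 8 fell as deposited, beside 9.29% and 54.0% of all tested genes. With the factors removed 7 rose, beside 25.7% of all tested genes, and 2 fell. The list median was 0.146 above that of all genes as deposited. The 4 of smallest p all fell. Parn, the deadenylase that trims H/ACA RNA ends, went from 46.3 ± 5.25 to 16.8 ± 2.099 FPKM (limma log2 difference -1.41, adjusted p = 0.000174, n = 3), and Exosc10, the nuclear exosome nuclease, from 60.4 ± 6.64 to 30.01 ± 1.15 FPKM (limma adjusted p = 0.000259, n = 3). Both remained called lower with the factors removed. Ruvbl2, an assembly ATPase, and Nolc1, a nucleolar chaperone, fell as deposited and at equal totals but not with the factors removed (limma adjusted p = 0.0611 and 0.105).

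The 5 that rose were named after their values were seen. Dbr1, the enzyme that opens intron lariats and so gives intronic snoRNAs access to trimming, measured 4.61, 4.52 and 3.24 FPKM in WT and 24.3, 12.3 and 30.01 FPKM in KO (limma log2 difference 2.11, SE 0.301, adjusted p = 0.000620). Its KO libraries were spread widely but all lay above WT. Coil, the Cajal body scaffold, rose from 6.02 ± 0.960 to 22.0 ± 6.39 FPKM (limma adjusted p = 0.000491, n = 3), and Znhit3, a box C/D assembly factor, from 33.1 ± 6.47 to 85.7 ± 16.2 FPKM (limma adjusted p = 0.000438, n = 3). Tgs1, the cap trimethylase, rose from 1.71 ± 0.405 to 5.97 ± 1.99 FPKM (limma adjusted p = 0.00147, n = 3). Ruvbl1 rose from 28.7 to 45.1 FPKM (limma adjusted p = 0.0191), with adjusted p up to 0.0747 when 1 library was left out. The other 4 kept their calls in all fits without 1 library and under both other scalings.

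Components of NMD and the exon junction complex were also mixed: of 19, 4 rose and 8 fell as deposited, 7 and 4 at equal totals, and 8 and 1 with the factors removed. The list median was 0.153 above that of all genes as deposited. Smg6, the NMD endonuclease, fell from 15.7 ± 0.930 to 7.44 ± 0.508 FPKM (limma adjusted p = 0.000362, n = 3) and stayed called lower with the factors removed (adjusted p = 0.0211). Ncbp2, a cap-binding subunit, Eif4a3, the helicase of the exon junction complex, and Upf3a fell as deposited (limma adjusted p = 0.000301, 0.000640 and 0.000808). With the factors removed their adjusted p was 0.155, 0.891 and 0.0508. Ncbp1, the partner of Ncbp2, rose from 3.07 to 8.22 FPKM (limma adjusted p = 0.00666); it was picked after its value was seen. Among 8 mRNAs known as NMD-sensitive, 0 rose and 1 fell as deposited, beside 9.29% and 54.0% of all tested genes. Once the genotype factors were taken out 5 rose, beside 25.7% of all tested genes, and 0 fell. Ern1, the faller as deposited, went from 46.4 to 26.4 FPKM (limma adjusted p = 0.000810), with adjusted p = 0.0585 at equal totals and 0.173 with the factors removed. Ern1 encodes IRE1, which cuts the Xbp1 mRNA that RTCB rejoins. The next by p did not pass: Nat9 differed by -0.25, Gadd45b by 0.47 and Ddit3 by -0.13 on the log2 scale. Nat9 and Ddit3 turned to 0.18 and 0.30 at equal totals.

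mRNAs with TOP starts were described in 2 lists. Of 77 cytosolic ribosomal protein genes, 8 rose and 4 fell as deposited, and the list median of 0.044 lay 0.515 above that of all genes. Because of that place the count turned with scaling, to 62 higher and 1 lower at equal totals and 70 and 1 with the factors removed. Rpl9 was 35.4 ± 3.52 FPKM in WT and rose to 109.6 ± 31.8 FPKM in KO, while Rpl37, at 1603.6 ± 219 FPKM in WT, fell to 653.7 ± 190 FPKM (limma adjusted p = 0.000531 and 0.000765, n = 3), in the same direction under all scalings. Rpl5 and Rpl4 fell as deposited (limma adjusted p = 0.00323 and 0.00497) and turned to 0.046 and 0.19 with the factors removed. The 15 other TOP mRNAs lay nearer to all genes, 0.063 above their median as deposited, with 2 higher and 8 lower, and 6 higher and 1 lower with the factors removed. Hnrnpa1, an RNA-binding protein, fell from 62.5 ± 14.1 to 23.7 ± 1.96 FPKM and Pabpc1, a poly(A)-binding protein, rose from 8.18 ± 1.67 to 29.6 ± 9.08 FPKM (limma adjusted p = 0.000341 and 0.000638, n = 3), both also under the other scalings. Eif4b and Eef1d fell as deposited (limma adjusted p = 0.00132 and 0.00189) but not at equal totals (0.138 and 0.176).

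Protein-coding genes that host snoRNAs were described in the same way. Of 40 tested, 23 of them ribosomal protein genes, 2 rose and 16 fell as deposited, and 22 rose and 4 fell with the factors removed. Hspa8, a heat shock chaperone, fell from 1135 ± 106 to 588 ± 32.6 FPKM (limma adjusted p = 0.000202, n = 3). Ppan and Wdr43, both ribosome biogenesis factors, and Tcp1, a chaperonin subunit, fell as deposited (limma adjusted p = 0.000233, 0.000432 and 0.000237). Hspa8, Ppan and Tcp1 stayed called lower with the factors removed, and Wdr43 did not (adjusted p = 0.365). Among 230 tested genes with an annotated snoRNA on the same strand, 30 rose and 117 fell as deposited, beside 9.29% and 54.0% of all tested genes, and the list median was -0.39 beside -0.47. These shares are near those of all genes. With the factors taken out, 78 rose and 51 fell. The 4 of smallest p were Ep400, Cryl1, Unc13c and Iars, which all fell (limma adjusted p = 0.000162 for each) and did so under all scalings. The difference between member and other hosts was not tested.

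Of 6 tested lncRNAs from a list with no regard to snoRNAs, 1 rose and 2 fell as deposited, and 3 rose and 0 fell with the factors removed. Malat1, a nuclear lncRNA, rose from 3.74 ± 2.03 to 12.8 ± 3.64 FPKM (limma adjusted p = 0.00528, n = 3). Pvt1 and Tug1 fell as deposited (limma adjusted p = 0.00100 and 0.0200), with adjusted p = 0.0665 and 0.693 with the factors removed. The Tug1 call was also lost without WT replicate 1, KO replicate 2 or KO replicate 3. Airn differed by -0.36 (limma adjusted p = 0.0999), with the sign turning to 0.14 with the factors removed.

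**Figure D4:**
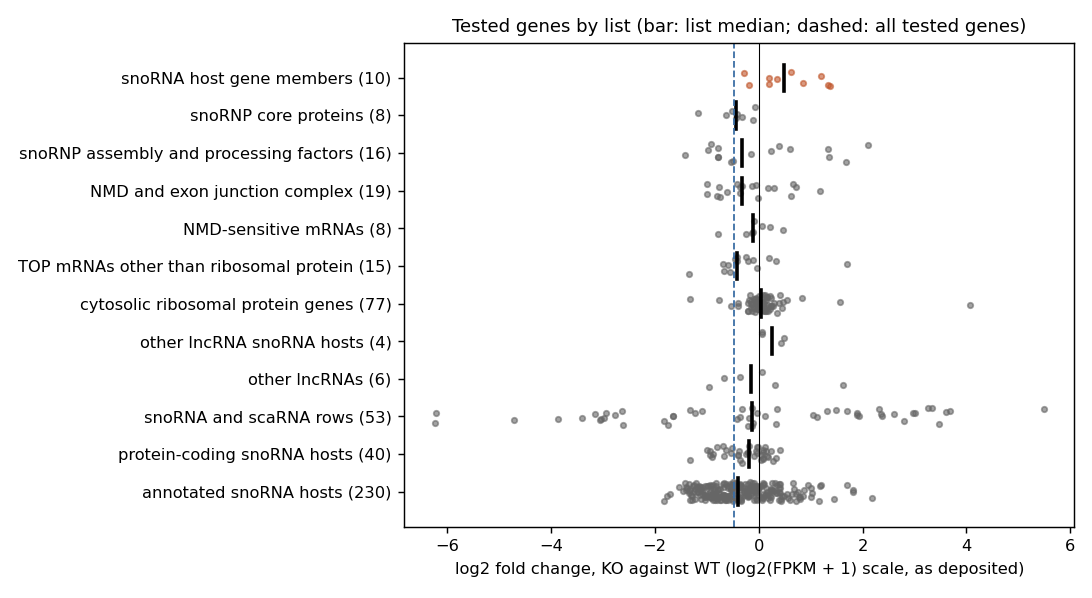
Log2 fold change of KO against WT as deposited, on the log2(FPKM + 1) scale (horizontal axis), for the tested members and the tested genes of 11 lists (rows, number of genes in brackets); each point is 1 gene, the short bars are list medians and the dashed line is the median of all tested genes. The members have a median of 0.49 and the core snoRNP proteins of -0.43, beside -0.47 for all tested genes; several lists share genes.

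The genes whose pattern over the 6 libraries was most like the mean standardised profile of the tested members were Nucks1, Dclre1c and Pip5k1a, with Pearson r of 0.996, 0.994 and 0.993. They were the only 3 of 12019 genes above 0.99. Nucks1 measured 8.01, 9.73 and 8.65 FPKM in WT and 11.8, 10.4 and 12.04 FPKM in KO. All points share the 6 libraries and the genotype difference, so r describes likeness only. Of the members, Snhg6 was nearest to the mean profile (r = 0.964) and Snhg9 farthest (r = -0.282).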

How the data were processed

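Polyadenylated RNA of 6 libraries of 10 oocytes was measured by Smart-seq2, per the labels' protocols. The submitters' processing notes name Cufflinks 2.2.1, TopHat2 2.1.1 and mouse build mm9, and no source used here gives the annotation or strand setting. The table deposited by the authors holds 1 FPKM value per gene symbol and library, normalised to ERCC spike-ins per the labels. A search over 378 fractions for the factor that restores 6-digit Cufflinks values (tolerance 0.01 of the last digit) gave 2 for WT and 4/3 for KO, known up to powers of 10. Spike-in error between libraries is therefore not in the spread.

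The 12029 genes whose mean over libraries reached 1 FPKM entered a limma fit (version 3.58.1, R 4.3.3) of log2(FPKM + 1) (intensity trend, two-sided, Benjamini-Hochberg adjustment over all tested genes, threshold 0.05). Tables and figures used Python 3.11.15, pandas 2.3.3, numpy 2.4.6 and matplotlib 3.10.9. The code of the fit was run on simulated data with few genes changed, equally in both directions. In these data most tested genes were called, mainly lower, so that run checks the code and not the fit in this setting. Depth is unknown from FPKM. Sequences are from RefSeq (GRCm38.p6) and GENCODE vM21, and no coordinate was carried over from mm9.

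The members and gene lists were chosen with earlier results of these data known. Named genes are all members, Rtcb, genes beside members, up to 4 members of smallest p in each list, the 3 genes most like the member profile, and those said to be chosen after their values were seen. Alternatives were other pseudocounts (0.1 and 5 FPKM), no filter or a mean of at least 10 FPKM, equal totals, median-ratio rescaling, genotype factors removed, no intensity trend, a replicate block and leaving out each library.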

Additional observations from a re-analysis of the deposited data

How the results depend on the processing

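The 5 members selected on this contrast were called higher in all 6 fits without 1 library, with either pseudocount, without a filter, without an intensity trend and with the replicate block; since the selection used the same values, this does not support the calls. Deviations of same-numbered WT and KO libraries had r of 0.141, -0.0988 and 0.0379. The labels do not say whether the numbers pair libraries, and so small an r cannot settle it. With the replicate block 1108 tested genes were called higher and 6432 lower.

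Scaling moved most counts. In the order equal totals, median-ratio rescaling and genotype factors removed, tested genes called higher went from 1118 to 2283, 2746 and 3097, and those called lower from 6501 to 3107, 2606 and 2161. Of the 10 tested members, 5 were called higher as deposited and 7, 8 and 8 under these scalings. Beside them stood 9.29% of the 12029 tested genes as deposited and 19% at equal totals. With median-ratio rescaling it was 2746 of 12029 genes, and with the factors removed 25.7%. As 5 members were selected on this contrast, nothing is read from the member counts. The member median went to 0.8974, 0.9743 and 1.015, Snhg1 to 1.797, 1.877 and 1.922, Gas5 to 1.253, 1.326 and 1.324, and Snhg6 to 1.047, 1.129 and 1.195. Snhg3 went to 0.7478, 0.8199 and 0.8338, Snhg5 to 0.6091, 0.6866 and 0.7324, Snhg10 to 0.6171, 0.6963 and 0.7481, and Snhg9 to 0.1549, 0.2364 and 0.3053. With a pseudocount of 0.1 FPKM Snhg8 went to 1.833 and Snhg12 to 2.808, and with 5 FPKM they went to 0.5168 and 0.4717 and Gas5 to 0.6508.

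List counts under the same 3 scalings were as follows. Core snoRNP proteins had 1, 2 and 2 higher and 1, 0 and 0 lower. Assembly factors had 5 lower with median-ratio rescaling and 2 with the factors removed. NMD and exon junction genes had 7, 8 and 8 higher and 4, 2 and 1 lower, and NMD-sensitive mRNAs 1, 3 and 5 higher and 0, 0 and 0 lower. Ribosomal protein genes had 62, 64 and 70 higher and 1, 1 and 1 lower, and other TOP mRNAs 5, 5 and 6 higher and 1, 1 and 1 lower. Protein-coding hosts had 20, 20 and 22 higher and 6, 4 and 4 lower, and annotated hosts 66, 75 and 78 higher and 63, 57 and 51 lower. Other lncRNA hosts had 3, 3 and 3 higher. Other lncRNAs had 3, 3 and 3 higher and 1, 1 and 0 lower. The snoRNA rows had 2, 2 and 2 higher and 2, 3 and 2 lower. Removing the genotype factors multiplies all values of a genotype alike, but with the pseudocount low genes shift less on the log2 scale. Snhg12 moved slightly down on that scale, from 1.337 to 1.252, while its ratio of means went up from 6.49 to 9.74. The downward move thus comes from the pseudocount.

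At a mean of at least 10 FPKM fewer genes were tested, and 490 were called higher, with 3 of the 6 members still in the fit. Snhg8 and Snhg12, both selected as higher, were below that mean. The number of genes tested there is not given, so no share stands beside the member count and nothing is read from it. In the lists, 0 NMD and exon junction genes, 2 snoRNA rows, 19 annotated hosts and 0 other lncRNAs were higher and 2 NMD-sensitive mRNAs lower. Without a filter the numbers called higher were 1 of the protein-coding hosts, 5 ribosomal protein genes, 1 other TOP mRNA, 2 other lncRNA hosts and 1 snoRNA row, with 2 snoRNA rows lower. Without an intensity trend they were 1, 5 and 1 for the first 3 lists, 2 for other lncRNAs and 1 for snoRNA rows.

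Leaving out 1 library gave 2 to 5 NMD and exon junction genes higher, 0 to 1 NMD-sensitive mRNAs higher and 1 to 2 lower, 0 to 7 protein-coding hosts, 2 to 20 ribosomal protein genes and 1 to 3 other TOP mRNAs higher. It gave 0 to 1 other lncRNA hosts higher, 1 to 2 other lncRNAs lower, and 1 to 3 snoRNA rows higher and 2 to 6 lower.

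Signs of single genes turned under the 3 scalings for Slc3a2 (0.2517, 0.3334 and 0.4023), Glrx5 (0.07093, 0.1529 and 0.2234), Nhp2l1 (0.009717, 0.09165 and 0.1619), Rpl4 (0.03653, 0.1185 and 0.1887), Nat9 (0.1815, 0.2626 and 0.3302), Ddit3 (0.2973, 0.379 and 0.4481) and Airn (0.01597, 0.08731 and 0.1374). Dkc1 turned under the last 2 (0.002457 and 0.07207) and Rpl5 under the last (0.04649). Between fits without 1 library, uncalled values crossed 0 for Ddit3 (-0.2211 to 0.007256), Rps2 (-0.07608 to 0.2339), Meg3 (-0.06821 to 0.1549) and Snurf (-0.14 to 0.2417). Meg3 and Snurf are from the list of other lncRNA hosts, though Snurf is protein-coding.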
